A study of Homo sapiens with 4 samples.

Results

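GAS5, SNHG1, SNHG3, SNHG5, SNHG6, SNHG7, SNHG8, SNHG12, SNHG15 and SNHG16 are genes whose introns hold small nucleolar RNAs (snoRNAs) and whose spliced exons make a long non-coding RNA. They were chosen by name, as 10 of the 57820 genes in the count files, and their exonic level was compared between SGSS05-NS and DMSO. These genes and the gene lists set beside them were chosen with earlier results of these data known. The RNA came from SY5Y, a neuroblastoma cell line without MYCN amplification, and was sequenced 12 h after treatment with DMSO or with SGSS05-NS. The labels use this name for the samples, while the study describes SGSS05-NS3, a covalent inhibitor of SETD8, the methyltransferase of histone H4 and p53, and also names SGSS05-NS as a related compound. Each condition had 2 libraries of independent cultures. The labels give 3 µM SGSS05-NS, as does a figure legend of the study, while its methods state a lower dose, and both conditions shared the cell line and the time point.

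A snoRNA is released from the intron of its host after splicing, bound by a set of core proteins, and guides the chemical modification or cleavage of ribosomal RNA. The spliced exons that remain leave the nucleus. In many such hosts they carry only short open reading frames that stop well before the last exon junction, and ribosomes that read them set off nonsense-mediated decay (NMD), a pathway that destroys transcripts with an exon junction far behind a stop codon. Because this decay needs translation, the exonic RNA of a host is known to accumulate when translation or NMD is blocked. Most of these hosts belong to the 5′ terminal oligopyrimidine (TOP) genes, whose transcripts begin with a run of pyrimidines and whose translation depends on growth signals.

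In SY5Y cells treated with SGSS05-NS, SNHG15, SNHG12, SNHG7 and SNHG1 rose, by 2.63-fold, 2.18-fold, 1.92-fold and 1.78-fold. The other 6 host genes did not pass the adjusted p of 0.001, and their fitted folds lay between 1.14 for SNHG3 and SNHG6 and 1.28 for SNHG8. None of the 10 fell. Over all 16468 genes tested, 6.37% were higher and 8.14% were lower at this threshold. At an adjusted p under 0.05, the host genes higher were 8 of 10, where the share over all genes was 22.6%, and those lower were 0, where it was 23.7%. At an unadjusted p under 0.05, 8 were higher and 0 lower, where 4361 of all 16468 genes tested were higher and 4446 lower. At 0.001, edgeR's likelihood ratio test, DESeq2 and limma voom also called 0 of the host genes lower. All other p-values are from edgeR's quasi-likelihood test, with the Benjamini-Hochberg method applied over every gene tested.

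Gene totals were between 21463105 and 25350204 fragments per library. Replicates of one condition differed by more than counting noise (chi-square over its degrees of freedom, 8.76 for the DMSO pair and 11.8 for the SGSS05-NS pair). KMT5A, which encodes SETD8, was at 55.7 ± 1.53 CPM (fragments scaled by TMM to a common library total, mean ± SD, n = 2) with DMSO and 82.9 ± 0.0952 with SGSS05-NS. CDKN1A, the p53 target that encodes p21, went from 17.4 ± 3.00 to 447 ± 103 CPM. Of the sympathetic neuroblastoma markers, 9 of 10 were tested. At an adjusted p of 0.001, 6 fell, against 8.14% of all genes, and 0 rose, against 6.37%. Their median log2 fold change was -0.81, against 0.01 over all genes. The likelihood ratio test called 7 lower, DESeq2 6 and limma voom 5. TH, the enzyme that starts catecholamine synthesis, had 0 to 2 fragments in every library. Of the 9 markers of other cell types, COL1A1 and COL1A2 were tested, at 0.215 to 1.18 CPM on average per condition, and those of the others that had a row held 0 to 4 fragments in a library. In bulk RNA, a smaller share of cells with a transcript cannot be told apart from less of it per cell. Fragments outside annotated exons took 12.4% and 12.3% of the DMSO libraries and 16.1% and 15.3% of the SGSS05-NS libraries, and whether this bears on the host genes was not tested.

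The reading frames of the host transcripts are shown because they are the feature by which spliced host RNA is read and destroyed. For 6 of the genes, the frame that begins at the first ATG of the transcript marked canonical in GENCODE release 44 was read from GRCh37, with the start and stop codons in capitals. The positions span any intron inside the frame.
SNHG15, chr7:45025616-45025627, minus strand: ATGccccggTAA
SNHG12, chr1:28909368-28909385, minus strand: ATGgtctcgatctccTGA
SNHG5, chr6:86388337-86388375, minus strand: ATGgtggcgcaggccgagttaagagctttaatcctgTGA
SNHG3, chr1:28832535-28834649, plus strand: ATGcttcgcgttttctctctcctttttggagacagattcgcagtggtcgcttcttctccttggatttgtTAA
SNHG16, chr17:74553882-74557413, plus strand: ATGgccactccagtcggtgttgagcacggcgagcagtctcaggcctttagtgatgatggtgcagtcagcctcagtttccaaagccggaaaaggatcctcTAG
SNHG1, chr11:62622613-62623391, minus strand: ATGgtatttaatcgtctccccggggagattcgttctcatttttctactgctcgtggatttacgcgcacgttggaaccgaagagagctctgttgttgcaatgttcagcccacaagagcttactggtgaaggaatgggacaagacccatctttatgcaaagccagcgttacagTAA

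The frame of SNHG15 had 3 codons, that of SNHG12 had 5 and that of SNHG5 had 12, and the longest in the canonical transcripts was that of SNHG7 with 67. Behind the stop codon, by more than 50 bases, lay 7 exon junctions in SNHG1, 5 in each of GAS5, SNHG5 and SNHG12, 2 in each of SNHG6, SNHG7, SNHG8 and SNHG16, 1 in SNHG15 and 0 in SNHG3. Across all annotated spliced transcripts of a gene, such a junction was present in 100% of 18 for SNHG12, 97.8% of 91 for GAS5, 94.9% of 79 for SNHG1, 94.3% of 87 for SNHG5, 94.1% of 17 for SNHG16, 80.0% of 10 for SNHG7, 78.6% of 14 for each of SNHG8 and SNHG15, 75.0% of 8 for SNHG6 and 33.3% of 3 for SNHG3. The share over the 52138 spliced transcripts of all lncRNA genes was 79.6%. Of the 10 host genes, SNHG3 was the one whose canonical transcript had no junction more than 50 bases behind the stop. The 2 genes whose spliced transcripts carried such a junction most often, SNHG12 and GAS5, had fitted folds of 2.18 and 1.25. Which transcript of a gene the cells made cannot be read from gene counts.

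The bases around the transcription start are shown for the TOP feature. RefSeq's promoter table held 8 of the 10 genes, without SNHG6 and SNHG15, and since it is on a later build, each window was placed on GRCh37 by an exact match of its promoter. The windows run from 20 bases before to 20 bases after the RefSeq start, with the longest pyrimidine run in capitals.
SNHG12, chr1:28908365-28908405, minus strand: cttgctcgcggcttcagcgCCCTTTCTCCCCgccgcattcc
SNHG7, chr9:139622616-139622656, minus strand: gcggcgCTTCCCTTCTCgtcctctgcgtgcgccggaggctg
SNHG16, chr17:74553826-74553866, plus strand: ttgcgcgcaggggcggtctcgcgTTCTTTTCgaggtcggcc
SNHG1, chr11:62623337-62623377, minus strand: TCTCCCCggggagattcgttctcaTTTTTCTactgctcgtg
SNHG5, chr6:86388431-86388471, minus strand: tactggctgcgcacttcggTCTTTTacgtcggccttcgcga
GAS5, chr1:173838163-173838203, minus strand: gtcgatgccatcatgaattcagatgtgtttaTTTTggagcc

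The longest run was 12 bases in SNHG12, 11 in SNHG7, 8 in SNHG16, 7 in SNHG1 where 2 runs tied, 6 in each of SNHG3, SNHG5 and SNHG8, and 4 in GAS5. Counted from the RefSeq start, the runs began at -1 in SNHG12 and SNHG5, -5 in SNHG8, 2 in SNHG3, 3 in SNHG16 and 11 in GAS5. The run of SNHG7 began at -14 and ended before the start, and the first of the tied runs in SNHG1 began at -20. A run of at least 8 bases anywhere in the window was present in 3 of 8 host windows and in 17.8% of 35116 promoters. This is not a count of transcripts that begin with such a run. The median of the longest run was 6.5 bases over the 8 genes and 5 over all promoters. The RefSeq starts of SNHG12 and SNHG1 lie downstream of the ATG printed above, so for these genes the frame and the window belong to transcripts with different starts. The windows of GAS5 and SNHG3 lie outside the gene spans of GENCODE given below, upstream of them, so a run there need not be part of the transcripts counted. In the promoters from 250 bases before to 50 after the start, the E-box CACGTG, searched on both strands, was present in 1 of 8, in SNHG7, and in 7.26% of all promoters. The C/EBP-ATF element TGATGNAAN, also on both strands, was present in 0 of 8 and in 3.61% of all promoters.

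The 4 host genes that rose are described first. SNHG15 (ENSG00000232956.4, chromosome 7 from 45022618 to 45026560, minus strand), which hosts an H/ACA box snoRNA, had 884 and 895 fragments with DMSO and 1689 and 2750 with SGSS05-NS. As TMM-scaled CPM these were 35.2, 38.3, 76.1 and 117. Both treated libraries lay above both DMSO libraries, and the second was well above the first. The log2 fold change was 1.39 with a standard error of 0.16 (adjusted p = 3.7e-05, edgeR's quasi-likelihood test and Benjamini-Hochberg), and it was 1.05 without the second SGSS05-NS library and 1.66 without the first.

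SNHG12 (ENSG00000197989.9, chromosome 1 from 28905050 to 28909644, minus strand), the host of SNORD99 and of H/ACA box snoRNAs, was the least abundant of the 10. It had 401 and 365 fragments with DMSO and 728 and 852 with SGSS05-NS, or 16.0, 15.6, 32.8 and 36.2 CPM. The groups did not overlap and the gap between them was far wider than the distance between replicates. The log2 fold change was 1.13 ± 0.11 (SE; adjusted p = 1.4e-05, edgeR's quasi-likelihood test and Benjamini-Hochberg).

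SNHG7 (ENSG00000233016.2, chromosome 9 from 139615818 to 139622636, minus strand), which hosts H/ACA box snoRNAs, had 939 and 854 fragments with DMSO and 1510 and 1740 with SGSS05-NS. The CPM values were 37.4, 36.6, 68.0 and 74.0, without overlap. The log2 fold change was 0.94 ± 0.10 (SE; adjusted p = 1.5e-05, edgeR's quasi-likelihood test and Benjamini-Hochberg). The 3′ side of SNHG7 overlaps DIPK1B, a protein-coding gene on the plus strand, and fragments on the opposite strand of SNHG7 came to between 26.0% and 40.2% of both strands together, compared with at most 3.61% for any other host gene. The share was 40.2% and 38.7% with DMSO and 27.1% and 26.0% with SGSS05-NS, as the sense fragments rose. DIPK1B itself was at 38.6, 35.8, 37.9 and 38.7 CPM, with a log2 fold change of 0.04 (adjusted p = 0.76).

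SNHG1 (ENSG00000255717.2, chromosome 11 from 62619450 to 62623425, minus strand), the host of the U22 snoRNA and its neighbours in successive introns, had 2406 and 2137 fragments with DMSO and 3722 and 3919 with SGSS05-NS. The CPM values were 95.9, 91.5, 168 and 167, the tightest treated pair of the 10. The log2 fold change was 0.84 ± 0.09 (SE; adjusted p = 2.5e-05, edgeR's quasi-likelihood test and Benjamini-Hochberg). These 4 genes kept their call under each of the 13 alternatives, where their largest adjusted p was 7.9e-05.

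**Figure D1:**
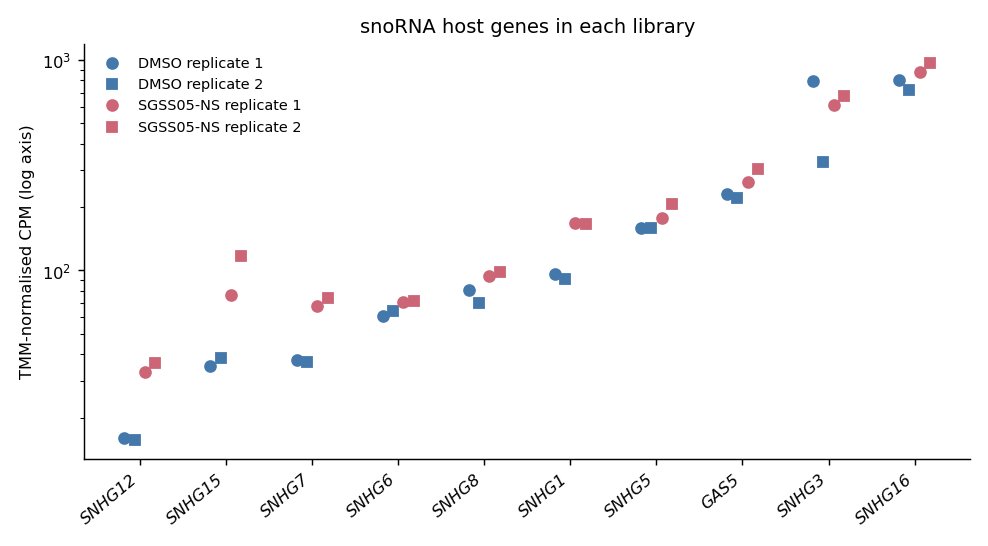
TMM-normalised CPM (log axis) of the 10 snoRNA host genes in each of the 4 libraries, ordered by their DMSO mean, with circles for replicate 1 and squares for replicate 2. SNHG12, SNHG15, SNHG7 and SNHG1 show a clear gap between DMSO and SGSS05-NS, while the DMSO libraries of SNHG3, at 796 and 328 CPM, lie on both sides of its treated ones.

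A second set had higher values in both treated libraries by a smaller amount. SNHG8 (ENSG00000269893.2, chromosome 4 from 119199858 to 119206471, plus strand), which hosts an H/ACA box snoRNA, was at 80.7 and 70.0 CPM with DMSO and 93.7 and 98.6 with SGSS05-NS. GAS5 (ENSG00000234741.3, chromosome 1 from 173827697 to 173838020, minus strand), named for its accumulation in growth-arrested cells and one of the best described NMD targets, was at 232, 222, 264 and 303 CPM. SNHG16 (ENSG00000163597.10, chromosome 17 from 74553809 to 74667067, plus strand), which hosts the SNORD1 snoRNAs, was at 800, 720, 881 and 969 CPM. SNHG5 (ENSG00000203875.6, chromosome 6 from 86360209 to 86388650, minus strand), the host of the U50 snoRNAs, was at 159, 160, 177 and 207 CPM. In all 4 the groups did not overlap. So it was in 9 of the 10 host genes, and both treated libraries were above both DMSO libraries in 37.8% of all genes tested.

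Their log2 fold changes were 0.35 for SNHG8, 0.32 for GAS5, 0.28 for SNHG16 and 0.27 for SNHG5, each with a standard error of 0.10. The adjusted p-values of edgeR's quasi-likelihood test and Benjamini-Hochberg were 0.013, 0.020, 0.036 and 0.044, past 0.05 but not past 0.001. None of the 4 held an adjusted p under 0.05 without the second DMSO library, where 4 of the 10 host genes passed it, those that passed 0.001. Without the second SGSS05-NS library, 5 passed, and with the replicate number as a block 7 did, without SNHG16 (adjusted p = 0.069). SNHG6 (ENSG00000245910.4, chromosome 8 from 67832796 to 67838633, minus strand), the host of U87, was at 61.1, 64.2, 70.6 and 71.8 CPM, also without overlap, and its log2 fold change of 0.19 ± 0.09 (SE) did not pass either threshold (adjusted p = 0.12).

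SNHG3 (ENSG00000242125.2, chromosome 1 from 28832492 to 28837404, plus strand), the host of the U17 snoRNAs, stood apart. It had 19967 and 7663 fragments with DMSO and 13502 and 15922 with SGSS05-NS, or 796, 328, 608 and 677 CPM. The gap between the 2 DMSO libraries was wider than the distance of either from the treated libraries, which lay between them. The log2 fold change was 0.19 ± 0.27 (SE; adjusted p = 0.59, edgeR's quasi-likelihood test and Benjamini-Hochberg). It was 0.96 without the first DMSO library (adjusted p = 4.9e-09) and -0.33 without the second (adjusted p = 0.067), so its direction was decided by 1 library. SNHG3 has 3 annotated spliced transcripts, of 3 exons in the canonical one, and nearly all its fragments lay on its own strand.

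All 10 genes together had 2289 and 1722 CPM with DMSO and 2523 and 2680 with SGSS05-NS, here as parts of the plain gene total, a mean of 2005 ± 401 (SD, n = 2) against 2601 ± 112. Without SNHG3 the sums were 1501, 1398, 1894 and 2013 CPM. Neither sum overlapped between the conditions, and the exact two-sided permutation test gave p = 0.333 for each, the smallest value that 2 against 2 libraries allow.

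Per kilobase of annotated exon, the levels with DMSO were ordered from SNHG3 (137 ± 80.9 CPM per kb, SD, n = 2) and SNHG16 (132 ± 9.84) through GAS5 (46.0 ± 1.46), SNHG6 (24.8 ± 0.868), SNHG1 (23.6 ± 0.786), SNHG5 (12.6 ± 0.0719), SNHG8 (11.4 ± 1.15), SNHG15 (9.33 ± 0.552) and SNHG7 (7.56 ± 0.126) down to SNHG12 (3.70 ± 0.0595). The neighbours SNHG3 and SNHG16 did not differ beyond the spread of their libraries. SNHG6, at 24.2 and 25.4 CPM per kb, lay narrowly above SNHG1, at 24.1 and 23.0. By this length, SNHG15, SNHG7 and SNHG12, which changed most, were the 3 with the lowest level per kilobase. With SGSS05-NS, SNHG1 was at 42.0 ± 0.192 CPM per kb, above SNHG6 at 28.2 ± 0.313, and SNHG15 at 24.5 ± 7.32 was above SNHG5 at 15.2 ± 1.68. Exon lengths were those of GENCODE release 44, whose models hold more transcripts than the release the counts were made with, so the levels are approximate. For SNHG1, SNHG8 and SNHG15 the exons together cover the whole gene span (3976, 6614 and 3943 bases). For these genes, the length therefore includes introns of other transcripts. With the longest transcript in place of all exons, SNHG3 (215) and SNHG16 (211) still led, and SNHG12 (7.91) was still last, but the 3 lowest were then SNHG12, SNHG15 (11.3) and SNHG8 (12.2), with SNHG7 at 15.7.

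The counts of 3 host genes depend on the strand. Without regard to strand, SNHG16 kept 39.1% to 41.3% of its strand-specific fragments, SNHG6 44.5% to 47.8% and GAS5 88.3% to 89.8%, since fragments that also touch a gene on the opposite strand are then counted for neither. With those counts the same 4 host genes rose.

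The snoRNAs inside the hosts are separate rows of the count files, and 4 of them were matched by identifier. None of these lies in SNHG1, SNHG7 or SNHG15, so the snoRNAs of these host genes, which rose, were not read. The 4 matched snoRNAs are printed because they are the mature products of the introns. The D box, the C box or the ACA box is in capitals where these exact letters stand at the usual end.
SNORD78 in GAS5, chr1:173834760-173834824, minus strand: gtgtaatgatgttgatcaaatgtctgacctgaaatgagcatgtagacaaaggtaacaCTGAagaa
SNORD99 in SNHG12, chr1:28905261-28905334, minus strand: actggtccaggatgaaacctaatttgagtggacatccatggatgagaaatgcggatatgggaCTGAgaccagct
SNORD1B in SNHG16, chr17:74557191-74557274, plus strand: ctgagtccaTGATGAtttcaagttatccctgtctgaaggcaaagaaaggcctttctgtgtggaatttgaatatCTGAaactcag
SNORA73B in SNHG3, chr1:28835071-28835274, plus strand: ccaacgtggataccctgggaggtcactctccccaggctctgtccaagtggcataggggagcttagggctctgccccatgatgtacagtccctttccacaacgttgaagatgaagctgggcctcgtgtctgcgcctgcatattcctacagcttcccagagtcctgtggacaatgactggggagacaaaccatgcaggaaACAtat

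SNORA73B, the H/ACA box RNA also called U17b, which takes part in the cleavage of the ribosomal RNA precursor, had 11415 and 12680 fragments with DMSO and 8125 and 11035 with SGSS05-NS. As CPM these were 455, 543, 366 and 469, with overlap between the conditions, and the log2 fold change was -0.26 ± 0.13 (SE; adjusted p = 0.12, edgeR's quasi-likelihood test and Benjamini-Hochberg). Its 2 DMSO libraries did not differ in the way those of SNHG3 did, since the library lower in SNHG3 was the higher in SNORA73B. The 3 C/D box snoRNAs were near the limit of detection. SNORD99 had 16, 13, 16 and 17 fragments, SNORD78 had 29, 33, 21 and 22, and SNORD1B had 6, 13, 9 and 13. Their adjusted p-values by edgeR's quasi-likelihood test were 0.56, 0.25 and 0.65, and at this depth no change of the snoRNA was detectable for SNHG12, whose exons rose. The log2 fold change of SNORD99 was 0.27 with a standard error of 0.35. Libraries of fragmented RNA recover RNAs of this size only in part.

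**Figure D2:**
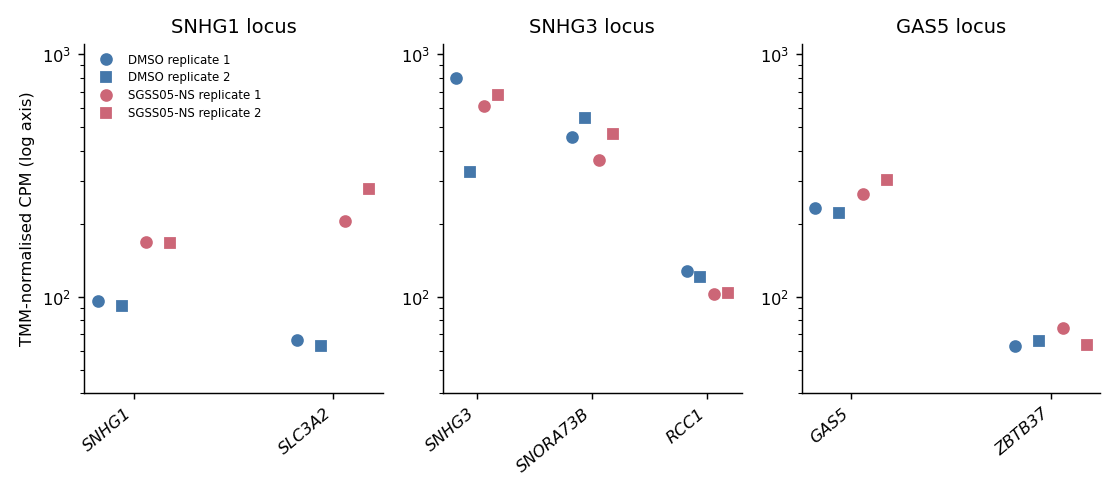
TMM-normalised CPM (log axis) of SNHG1, SNHG3 and GAS5 with a snoRNA or protein-coding genes of the same locus in the 4 libraries, with circles for replicate 1 and squares for replicate 2. SLC3A2 is higher with SGSS05-NS beside SNHG1, the values of ZBTB37 overlap beside GAS5, and the split of the DMSO libraries of SNHG3 is not seen in SNORA73B or RCC1.

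The protein-coding genes next to the hosts were read from the same test. SLC3A2, the heavy chain of amino acid transporters at the plasma membrane, starts 51 bases from SNHG1 on the opposite strand. It was at 66.2 and 62.7 CPM with DMSO and 206 and 279 with SGSS05-NS, a log2 fold change of 1.91 ± 0.13 (SE; adjusted p = 7.6e-07, edgeR's quasi-likelihood test and Benjamini-Hochberg), so that both genes of this pair rose. ZBTB37, which overlaps the 5′ side of GAS5, was at 62.8, 65.4, 74.3 and 63.4 CPM with a log2 fold change of 0.10 (adjusted p = 0.43).

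RCC1, the nucleotide exchange factor of Ran, shares the strand and the start region of SNHG3, with annotated starts 37 bases apart. It was at 128 and 121 CPM with DMSO and 103 and 104 with SGSS05-NS (log2 fold change -0.27 ± 0.09, adjusted p = 0.031, edgeR's quasi-likelihood test and Benjamini-Hochberg), and its DMSO libraries did not show the split of SNHG3. Fragments in exons that both genes use are ambiguous and are counted for neither. TRNAU1AP beside SNHG12 had a log2 fold change of 0.09 (adjusted p = 0.64) and PRSS12 beside SNHG8 of -0.37 (adjusted p = 0.082), and the protein-coding genes that overlap SNHG5, SNHG6 and SNHG16 had too few fragments to be tested.

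Other non-coding snoRNA hosts were compared as a list of 20, of which 17 were tested. At an adjusted p of 0.001, 4 rose (23.5%, against 6.37% of all genes), 0 fell (against 8.14%) and 13 did not pass. The median log2 fold change was 0.43. SNHG32 went from 51.5 ± 2.95 to 86.0 ± 4.95 CPM, EPB41L4A-AS1 from 33.9 ± 3.29 to 59.7 ± 5.47, ZFAS1 from 82.7 ± 3.50 to 121 ± 4.05 and SNHG17 from 18.8 ± 2.35 to 35.1 ± 8.74 (mean ± SD, n = 2). ZFAS1, a TOP transcript antisense to the start of ZNFX1, had a log2 fold change of 0.55, and the other 3 lay between 0.74 and 0.90. The abundant host SNHG29 was at 583 ± 37.8 and 612 ± 67.8 CPM, a difference smaller than the spread of its libraries. SNHG25 had the lowest value, a log2 fold change of -0.76 (adjusted p = 0.0075, edgeR's quasi-likelihood test and Benjamini-Hochberg), with 322 and 200 fragments against 143 and 146. At an unadjusted p under 0.05, 9 were higher and 1 lower, where 4361 of all 16468 genes were higher and 4446 lower. The likelihood ratio test, DESeq2 and limma voom called 5, 4 and 3 higher and 1, 0 and 0 lower at 0.001, and leaving out each library in turn gave 3 to 5 higher and 0 or 1 lower.

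**Figure D3:**
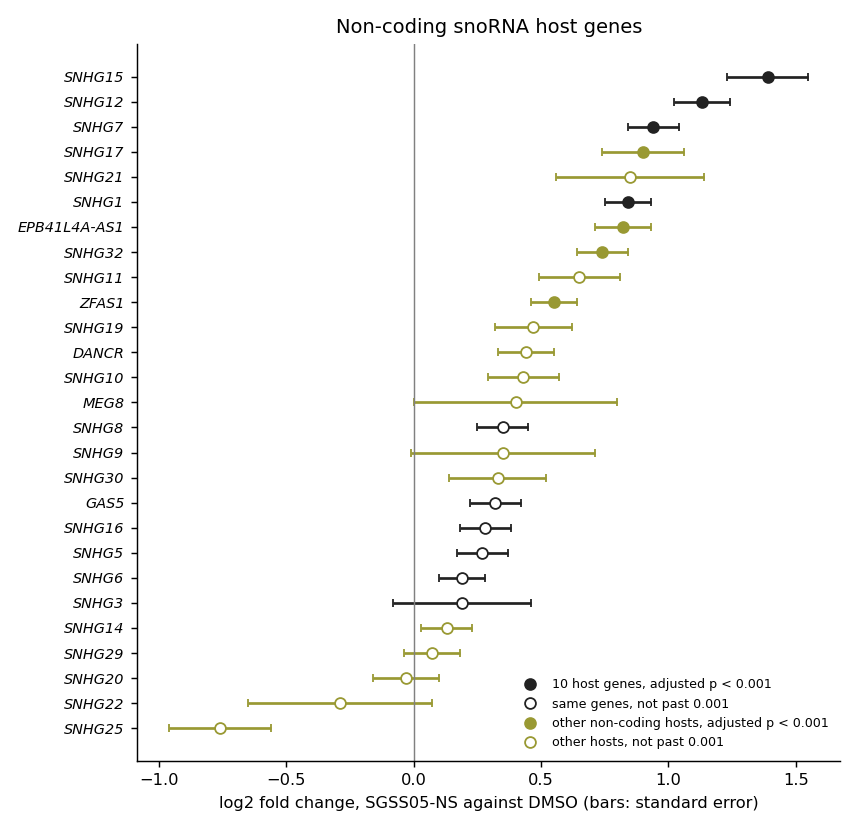
Log2 fold change of SGSS05-NS against DMSO with its standard error for 27 non-coding snoRNA host genes, 10 in black and the 17 others tested in olive, filled where the adjusted p was under 0.001. Values run from -0.76 for SNHG25 to 1.39 for SNHG15, and the filled points are SNHG15, SNHG12, SNHG7, SNHG17, SNHG1, EPB41L4A-AS1, SNHG32 and ZFAS1.

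For lncRNA genes as a class, a background chosen after the values were seen, 82 of the 1813 tested rose (4.52%), with a median log2 fold change of 0.31 against 0.01 over all genes. Of these 82, 8 were snoRNA hosts, the 4 of each set named above. Many lncRNA genes have few fragments. Among the 144 lncRNA genes with a mean of at least 10 CPM over all libraries, 20 rose (13.9%) and their median log2 fold change was 0.12, compared with 0.34 for the 10 host genes, all of which exceed this level. These 144 held 20 snoRNA hosts, and 8 of the 20 lncRNA genes that rose were such hosts. The median of the 10 host genes was 0.65 without the first DMSO library and 0.26 without the second, and no test was made of its difference from either set of lncRNA genes.

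Protein-coding hosts carry their snoRNAs in the introns of translated genes, many of them TOP genes for ribosomal proteins. Of 52 tested, 4 rose (7.69%, against 6.37% of all genes) and 0 fell (against 8.14%), with a median log2 fold change of 0.06. The 4 were EIF5, a start-codon recognition factor (333 ± 19.8 to 674 ± 116 CPM), HSPA8, the constitutive HSC70 chaperone (2055 ± 83.9 to 3426 ± 318), EIF4A2, an RNA helicase of translation initiation (186 ± 25.0 to 311 ± 25.8), and TCP1, a chaperonin subunit (409 ± 11.2 to 602 ± 24.3). None of them is a ribosomal protein gene. At an unadjusted p under 0.05, 10 were higher and 5 lower, where 4361 of all 16468 genes were higher and 4446 lower. At 0.001 the likelihood ratio test and DESeq2 each called 2 lower and limma voom 0. Without 1 library, 3 to 5 rose and 0 or 1 fell.

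Of 18 NMD and exon junction factors tested, 2 rose (11.1%), 2 fell and 14 did not pass, with a median log2 fold change of 0.13. At 0.001, the likelihood ratio test and DESeq2 each called 3 higher and 3 lower, and limma voom 2 and 1. Over all genes tested, 6.37% were higher and 8.14% lower, and a difference of this list from those shares was not tested. SMG5, an adaptor that brings deadenylation and decapping to the target, rose from 155 ± 7.29 to 227 ± 1.06 CPM, and SMG8, a subunit of the SMG1 kinase complex, from 64.4 ± 0.866 to 100 ± 15.2. SMG6, the endonuclease that cuts NMD targets, fell from 48.3 ± 2.44 to 31.3 ± 1.56 CPM, and MAGOHB, an exon junction core protein, from 32.8 ± 1.00 to 21.5 ± 1.25. Their log2 fold changes were 0.55, 0.63, -0.62 and -0.61, with adjusted p-values of 5.0e-04, 6.8e-04, 4.3e-04 and 8.8e-04 (edgeR's quasi-likelihood test and Benjamini-Hochberg). UPF1, the central NMD helicase, was not among those that passed.

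Of 21 decay enzymes and decapping factors tested, 0 rose and 0 fell at 0.001 by edgeR's quasi-likelihood test. At an adjusted p under 0.05, 4 were higher and 3 lower, where the shares over all genes were 22.6% and 23.7%. At an unadjusted p under 0.05, 4 were higher and 6 lower, where 4361 of all 16468 genes were higher and 4446 lower. At 0.001, the likelihood ratio test called 3 higher and 1 lower, DESeq2 0 and 1, and limma voom 0 and 0. The smallest adjusted p-values of edgeR's quasi-likelihood test were 0.0013 for DCP1B (log2 fold change 0.72), 0.0016 for XRN1, the cytoplasmic 5′ to 3′ exonuclease (-0.47), and 0.0016 for EDC4 (0.46). Among 18 tested snoRNA-protein and assembly genes, NOP58, a core C/D box protein, rose from 119 ± 2.78 to 181 ± 16.2 CPM and NOPCHAP1, its assembly chaperone, from 11.3 ± 0.307 to 19.5 ± 2.57. RUVBL1, an ATPase of the assembly machinery, fell from 160 ± 3.68 to 99.3 ± 3.61 CPM, and the median log2 fold change of the list was -0.09. In this list, 2 rose at 0.001 (11.1%, against 6.37% of all genes) and 1 fell (against 8.14%). The likelihood ratio test and DESeq2 each called 2 higher and 3 lower, and limma voom 2 and 1. At an adjusted p under 0.05, 5 were higher and 5 lower, against 22.6% and 23.7% of all genes.

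Other messages known as NMD targets rose in 7 of 10 cases, against 6.37% of all genes, with a median log2 fold change of 1.44. By edgeR's quasi-likelihood test, which called 8.14% of all genes lower, 0 fell. The likelihood ratio test, DESeq2 and limma voom also called 0 lower. At an unadjusted p under 0.05, 10 were higher and 0 lower, where 4361 of all 16468 genes were higher and 4446 lower. GADD45A went from 453 and 467 fragments to 3274 and 3297 (log2 fold change 2.92), DDIT3 from 69 and 66 to 1300 and 1827 (4.61) and ATF3 from 79 and 108 to 1414 and 2427 (4.43). These 3 are also known as stress response genes, and the study names GADD45A and GADD45B as p53 targets that the compound activates. Whether the messages of this list were made more or decayed less was not tested. GADD45B had 1 and 2 fragments with DMSO and 204 and 391 with SGSS05-NS. UPP1, an enzyme of uridine breakdown (log2 fold change 1.82, adjusted p = 5.1e-05), MAP3K14, a kinase of NF-κB signalling (1.06, adjusted p = 7.5e-04), and ATF4, the stress response transcription factor (0.69, adjusted p = 1.7e-04), completed the 7. The 3 not past 0.001 were NAT9 (0.53, adjusted p = 0.0016), CARS1 (0.49, adjusted p = 0.0014) and TBL2 (0.30, adjusted p = 0.093, edgeR's quasi-likelihood test and Benjamini-Hochberg).

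Translation control genes split, with 3 of 11 higher (27.3%, against 6.37% of all genes) and 2 lower (against 8.14% of all genes). Their median log2 fold change was -0.07. PPP1R15A, the stress-induced subunit that directs dephosphorylation of eIF2α, rose from 23.0 ± 1.22 to 190 ± 32.7 CPM. Its constitutive counterpart PPP1R15B rose from 207 ± 12.4 to 337 ± 41.3 CPM. DDIT4, an inhibitor of mTORC1, rose from 22.4 ± 1.47 to 90.7 ± 13.1 CPM. EIF2AK4, the eIF2α kinase GCN2, fell from 84.1 ± 0.299 to 54.4 ± 2.91 CPM, and EEF2K, the kinase of elongation factor 2, fell by 0.57 on the log2 scale. Transcript levels do not measure the rate of translation, and neither translation nor RNA half-life was measured in these libraries, so whether the host transcripts that rose were made more or decayed less cannot be told apart.

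**Figure D4:**
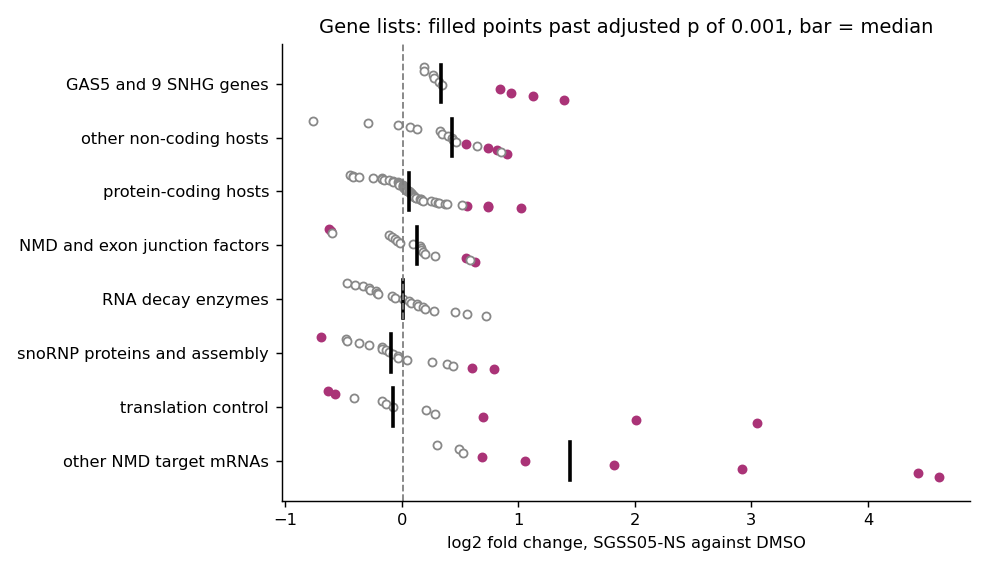
Log2 fold change of SGSS05-NS against DMSO for the genes of 8 lists, filled where the adjusted p was under 0.001, with a black bar at each median and a dashed line at the median of all genes (0.01); GADD45B, with 1 and 2 fragments in the DMSO libraries, is left out of the points. The medians are 0.34 for the 10 host genes, 0.43 for other non-coding hosts, 0.06 for protein-coding hosts and 1.44 for other NMD target messages.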

How the data were processed

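RNA of SY5Y cells was sequenced in 4 libraries, 2 with DMSO and 2 with SGSS05-NS, grouped by their labels. The authors used Trimmomatic 0.30 for trimming and STAR 2.4.2a for alignment to hg19, and deposited raw counts of fragments per GENCODE gene, unpooled and unnormalised, in 3 columns by strand (edgeR 3.10.5 followed). Multimapping fragments were not counted, which lowers genes with near-identical copies. The labels and the study's methods name different library kits, the latter stranded. The reverse-strand column was used, without the 4 summary rows.

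Counts were fitted in R 4.3.3 with edgeR 4.0.16 (filterByExpr, TMM, quasi-likelihood test, Benjamini-Hochberg adjustment over 16468 genes, threshold 0.001 as in the study). A standard error is the log2 fold change over the square root of F. Symbols, positions, exons and frames came from GENCODE release 44 on GRCh37 and start windows from RefSeq. The steps were tested on simulated data. Over the genes tested, the deviations of same-numbered libraries were nearly uncorrelated (0.0605), which does not settle whether the replicate numbers pair the libraries.

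Named were all 10 host genes, their matched snoRNAs and neighbours that overlap them or start within 5 kb (the result of 1 neighbour is not reported here), and the 3 genes of each list with the smallest p. SNHG17, SNHG25, SNHG29, TCP1, MAGOHB, UPF1, UPP1, MAP3K14, ATF4, NAT9, CARS1, TBL2, PPP1R15B, EEF2K, GADD45B, KMT5A and CDKN1A were named after their values were seen. The members and lists were chosen with earlier results of these data known. Alternatives were other tests (DESeq2 1.42.0, voom of limma 3.58.1), scalings, filters, strand, a replicate block and leaving out each library.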

Additional observations from a re-analysis of the deposited data

Results flagged for a closer look

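Signal outside the measurement used here stood out in both treated libraries. Fragments outside annotated exons took 16.1% and 15.3% of the SGSS05-NS libraries and 12.4% and 12.3% of the DMSO libraries. On the strand opposite SNHG7, 630 and 540 fragments were counted with DMSO and 560 and 610 with SGSS05-NS, which relative to the gene totals placed both treated libraries just above both DMSO libraries. The gene totals were smaller in the first SGSS05-NS library, and no test was made of this difference. Their part in the results of the host genes was not tested.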

How the results depend on the processing

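Of 130 fitted values, 13 alternatives for each of the 10 host genes, 128 kept their direction and their side of 0.001. The exceptions were SNHG3 without DMSO replicate 1 (0.96, past the threshold) and without DMSO replicate 2 (-0.33). The host genes higher were 4 under each test, scaling, filter, strand and block alternative, 8 at an adjusted p under 0.05, and 4 to 5 with 1 library left out, and 0 were lower in each. With DESeq2, 6 were higher at 0.05. The median of the host genes was 0.26 to 0.65 with 1 library left out. Over all genes, the likelihood ratio test gave 2022 higher and 2267 lower, no filter on low counts 2034 and 2570, an adjusted p under 0.05 3728 and 3903. The replicate block gave 1759 higher genes. The block changed no call at 0.001 among the host genes, while at 0.05 it left 7 of 8, without SNHG16 (adjusted p = 0.069). The cause of these differences was not tested. With 1 library left out, the lone library was assumed to vary like the other condition. With 2 libraries per condition the p-values rest on few degrees of freedom, and C/D box snoRNAs of 6 to 33 fragments limit what can be said of the products of these hosts.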
